A study of Rattus norvegicus with 18 samples.

Results

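Translation initiation and elongation factors were followed in Rat1 fibroblasts without and with human MYC, and after knockdown of the aryl hydrocarbon receptor (AHR) in the MYC-expressing cells. Members were all genes of the deposited table whose symbol begins with Eif1 to Eif6 or with Eef1 or Eef2, apart from Eif2s3x, Eif2s3y and the kinases of eIF2 alpha (symbols beginning with Eif2ak). Of 61 matching symbols 6 were left out in this way, and 55 members remained among 13188 genes, 46 initiation factors and their regulators and 9 elongation factors and their modifiers. RNA was sequenced from 18 libraries in 6 groups of 3. All groups were of HO15.19, a Rat1 derivative in which both copies of myc are deleted. They were named myc-/- (untransfected, no MYC), myc-/- siCtrl (no MYC, control siRNA), myc-/- + MYC (human MYC, untransfected), myc-/- + MYC siCtrl (human MYC, control siRNA), and myc-/- + MYC siAHR-2 (human MYC, one siRNA against AHR), while the last group, myc-/- + MYC siAHR-5, received another siRNA against AHR. The siRNAs were used at 40 nM for 48 h. MYC was expressed from a retroviral vector in a stable line, so its level is not under the control of the endogenous promoter. The study's methods state that experiments were repeated and held technical replicates, but the sources used here do not say which of these the 3 libraries of a group are. If they are not separate cultures, the p-values below measure only the spread between these libraries, which may then be technical.

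Initiation of translation begins when the 40S ribosomal subunit, held by eIF3, eIF1, eIF1A and eIF5, receives the initiator tRNA from eIF2 with GTP, while the eIF4 proteins recognise the mRNA cap and unwind the leader. The subunit then scans to the start codon, and eIF5B joins the 60S subunit to it. Elongation uses eEF1A to bring each aminoacyl-tRNA, the eEF1B subunits to recharge eEF1A with GTP, eEF2 to move the ribosome and eIF5A to help at poorly reacting residues. MYC is a transcription factor known to raise ribosome production and protein synthesis, and AHR is a ligand-activated transcription factor that binds DNA with ARNT.

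Values below are the deposited normalized expression values on a log2 scale, and log2FC is the difference between group means on that scale. The values are not divided by gene length, so the levels of members are compared between libraries and not between genes. They hold no counts, and read depth cannot be stated. The deposited libraries stood on 2 scales. One is a 6-library set (groups myc-/- siCtrl and myc-/- + MYC), and the remaining 4 groups form a 12-library set. Library medians were 11 to 11.05 in the 6-library set and 11.61 to 11.68 in the 12-library set. MYC was therefore compared within each set, as myc-/- + MYC minus myc-/- siCtrl in the 6-library set and as myc-/- + MYC siCtrl minus myc-/- in the 12-library set. In both of these comparisons the transfection changes together with MYC and the effects cannot be told apart within a set. The endogenous Myc row kept a signal in every library, with a log2 value of 9.16 to 9.47 in myc-/- siCtrl against 8.01 to 8.08 in myc-/- + MYC, and 10.82 to 10.94 in myc-/- against 8.16 to 8.27 in myc-/- + MYC siCtrl. Which part of the gene is deleted is not given in the sources used here, so this row does not check the labels. Ahr had log2 values of 13.22 to 13.34 in myc-/- + MYC siCtrl, 11.97 to 12.03 with siAHR-2 and 11.76 to 11.95 with siAHR-5, so that both siRNA groups lay below the control without overlap.

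All 11 fibroblast markers examined were in the table. Their place against the median of all genes in a library is a rough check, since gene length enters it. Of these markers, 6 (Col1a1, Col3a1, Vim, Fn1, Pdgfra and S100a4) lay above the library median in all 18 libraries, and 2 (Col1a2 and Lum) lay below it in all 18. The markers of epithelial cells (4 of 5 listed were in the table), leukocytes (3 of 4), endothelial cells (4 of 4) and skeletal muscle (2 of 4) that were in the table lay below the library median in all libraries. The fibroblast list moved with MYC, with 1 marker called higher and 5 lower in the 6-library set, and 0 higher and 7 lower in the 12-library set. By the same rule, given below, 12.5% of all genes were called higher and 14.3% lower in the 6-library set. In the 12-library set these shares were 10.8% and 14.7%. The summed level of the fibroblast list, as log2, was 20.82 to 20.84 in myc-/- siCtrl and 19.9 to 19.99 in myc-/- + MYC, and 21.95 to 22.18 in myc-/- against 20.23 to 20.25 in myc-/- + MYC siCtrl. The skeletal muscle markers Des and Ckm also fell in both sets, and their summed level was 10.57 to 10.7 against 9.13 to 9.37 in the 6-library set and 9.99 to 10.28 against 8.91 to 9.09 in the 12-library set. Of the other markers, Krt8 (epithelial) was called higher in both sets (log2FC 1.70 and 1.17), Cd3e (leukocyte) lower in both (-2.09 and -1.13) and Tek (endothelial) higher in the 6-library set (1.61). With siAHR-5 the fibroblast marker Thy1 was called higher (0.75), where 2.33% of all genes were called. The summed fibroblast level was 19.96 to 19.97 with siAHR-5 and 19.99 to 20.03 with siAHR-2. With the cells without MYC first and the 6-library set before the 12-library set, the summed epithelial level was 8.18 to 8.25 against 8.63 to 8.81 and 7.76 to 7.92 against 8.77 to 9.11, and the summed leukocyte level was 9.61 to 9.72 against 8.36 to 8.5 and 8.47 to 8.56 against 7.93 to 8.11. The summed endothelial level was 8.09 to 8.2 against 8.44 to 8.53 in the 6-library set and 9.28 to 9.43 against 9.51 to 9.63 in the 12-library set. The part of these movements in the results below was not tested. In bulk RNA, fewer cells of a type and less RNA per cell cannot be told apart.

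A gene was called at a log2FC of 0.585 or more in size (1.5-fold) with an adjusted p of at most 0.01 by limma with Benjamini-Hochberg adjustment over all 13188 genes. With MYC, 12 of 55 members were called in the 6-library set, 8 higher and 4 lower, where 26.8% of all genes were called (12.5% higher and 14.3% lower). In the 12-library set, 11 members were called, 7 higher and 4 lower, where 25.5% of all genes were called (10.8% higher and 14.7% lower). The share of members called was thus close to that of all genes in both sets. When each library was given the same distribution of values (quantile normalization), the split became 10 higher and 2 lower in the 6-library set and 13 higher and 0 lower in the 12-library set. Centring each library on its median gave 10 higher and 2 lower in the 12-library set. With an FDR below 5% as the only cutoff, 30 members were higher and 15 lower in the 6-library set, against 37.3% and 39% of all genes, and 29 were higher and 13 lower in the 12-library set, against 31.6% and 33.1% of all genes. The median log2FC of the members was 0.16 in the 6-library set and 0.14 in the 12-library set, while that of all genes was -0.0038 and -0.0001.

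The sets share no libraries. In both of them 7 members were called in the same direction, which is 58.3% of the 12 called in the 6-library set and 63.6% of the 11 called in the 12-library set. The same shares for all genes were 58.8% and 61.9%. Over all members the 7 make 12.7%, and of all genes 15.8% were called in the same direction in both sets. The members' shares were thus near those of all genes. The 5 that rose in both were Eif4ebp2, Eif2a, Eef1e1, Eef2kmt and Eif4b, and the 2 that fell in both were Eif4g2 and Eif3c. No member was called in opposite directions, while Eef1a1, Eif2d and Eif3a passed an FDR of 5% in both sets with opposite signs.

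**Figure D1:**
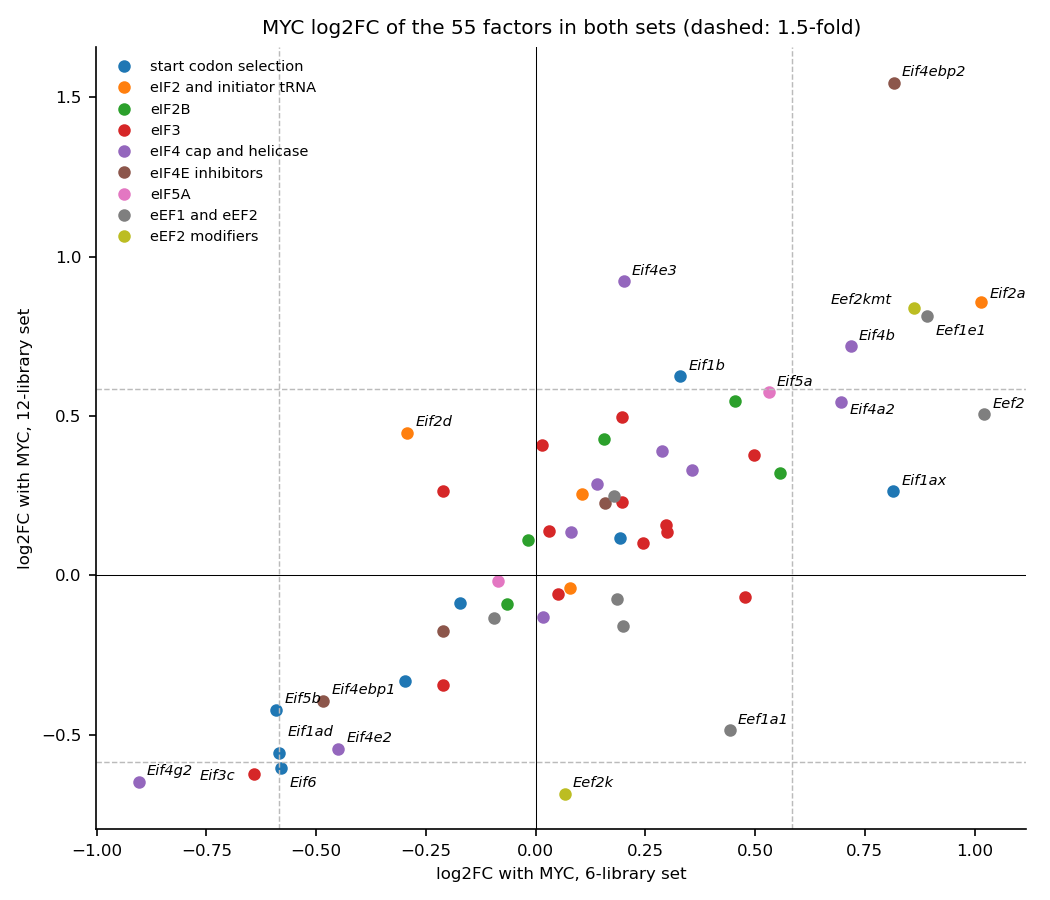
The log2FC with MYC in the 6-library set (horizontal axis) is plotted against that in the 12-library set (vertical axis) for the 55 members, coloured by role, with dashed lines at 1.5-fold. Eif4ebp2, Eif2a, Eef1e1, Eef2kmt and Eif4b lie past the upper lines of both axes, and Eif4g2 and Eif3c past the lower lines of both. Eef1a1 lies to the lower right (0.44 and -0.49). Its values under quantile normalization, which goes by rank, were 0.00 and 0.40.

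Among the members, the largest rise in the 12-library set was of Eif4ebp2, one of the 4E-BP proteins that bind eIF4E and keep it from eIF4G. Its log2 values were 12.09, 12.14 and 12.21 in myc-/- siCtrl and 13.00, 12.90 and 12.99 in myc-/- + MYC. They were 13.15, 13.01 and 13.13 in myc-/- and 14.70, 14.67 and 14.56 in myc-/- + MYC siCtrl of the other set. The MYC-expressing groups lay above their controls in both sets without overlap, by a log2FC of 0.82 ± 0.04 (SE, adjusted p = 8.18e-09) and 1.55 ± 0.05 (adjusted p = 3.28e-06). Its paralog Eif4ebp1 lay lower with MYC, with 14.49, 14.57 and 14.56 against 14.02, 14.06 and 14.10 in the 6-library set and 15.03, 15.21 and 15.02 against 14.68, 14.71 and 14.69 in the 12-library set. Its log2FC of -0.48 and -0.39 passed the adjusted p of 0.01 in both sets but not the fold cutoff. Eif4ebp3 had log2FC of 0.16 and 0.23, and Eif4enif1, which carries eIF4E into the nucleus and to P-bodies, had -0.21 and -0.17, none of them past both cutoffs.

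Among the eIF4 proteins, MYC was accompanied by more Eif4b, the cofactor of the eIF4A helicase, and less Eif4g2, an eIF4G relative (DAP5) that lacks the eIF4E binding site. Eif4b values were 15.29, 15.28 and 15.30 in myc-/- siCtrl against 16.03, 16.00 and 15.98 in myc-/- + MYC, and 15.94, 15.92 and 15.90 in myc-/- against 16.64, 16.62 and 16.66 in myc-/- + MYC siCtrl. The libraries of each group lay close together and the groups were far apart, with a log2FC of 0.72 ± 0.03 in each set (adjusted p = 6.11e-10 and 4.63e-06). Eif4g2 was at 16.89, 16.87 and 16.89 against 15.85, 16.03 and 16.06 in the 6-library set, and at 18.50, 18.37 and 18.49 against 17.85, 17.79 and 17.78 in the 12-library set. Its groups did not overlap in either set, and the log2FC was -0.90 ± 0.05 (adjusted p = 1.32e-08) and -0.65 ± 0.05 (adjusted p = 8.43e-05). With quantile normalization the difference in the 12-library set was -0.38, below the fold cutoff. The other eIF4G scaffold in the table, Eif4g3, had log2FC of 0.29 and 0.39 and was not called. The table held no gene under the symbol Eif4g1.

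Of the 3 eIF4A paralogs, Eif4a2 was called, in the 6-library set, where 26.8% of all genes were called. Eif4a2, which encodes an eIF4A helicase like Eif4a1, was at 13.64, 13.56 and 13.47 in myc-/- siCtrl and 14.15, 14.30 and 14.30 in myc-/- + MYC, and at 14.48, 14.54 and 14.49 in myc-/- and 15.03, 15.00 and 15.11 in myc-/- + MYC siCtrl. All MYC libraries lay above their controls, with a log2FC of 0.70 ± 0.05 in the 6-library set, which was called, and 0.54 ± 0.04 in the 12-library set, which missed the fold cutoff but passed it with quantile normalization (0.70) and median centring (0.59). Eif4a1 had log2FC of 0.36 and 0.33, and Eif4a3, the helicase of the exon junction complex, had 0.02 and -0.13 (95% interval -0.26 to 0.00), the former turning negative with median centring and the latter positive with quantile normalization. The helicase cofactor Eif4h had 0.08 and 0.14.

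Of the 3 cap-binding proteins, 1 was called, in the 12-library set, where 25.5% of all genes were called. Eif4e, the main cap-binding protein, had log2FC of 0.14 and 0.29. Eif4e2 (4EHP), a cap-binding protein that does not engage eIF4G and acts in repression of translation, had -0.45 and -0.54 without being called, at 13.13, 13.18 and 13.18 against 12.63, 12.75 and 12.76 in the 6-library set and at 14.45, 14.57 and 14.51 against 13.96, 13.99 and 13.95 in the 12-library set. Its groups did not overlap in either set. Eif4e3, an eIF4E relative with weaker cap binding, was at 10.55, 10.57 and 10.56 in myc-/- siCtrl against 10.93, 10.77 and 10.58 in myc-/- + MYC, and at 10.78, 10.75 and 10.64 in myc-/- against 11.70, 11.62 and 11.62 in myc-/- + MYC siCtrl. In the 12-library set it rose by a log2FC of 0.92 ± 0.05 (adjusted p = 2.25e-05), while the difference in the 6-library set was 0.20 ± 0.07, and the lowest MYC library there was next to the highest control.

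**Figure D2:**
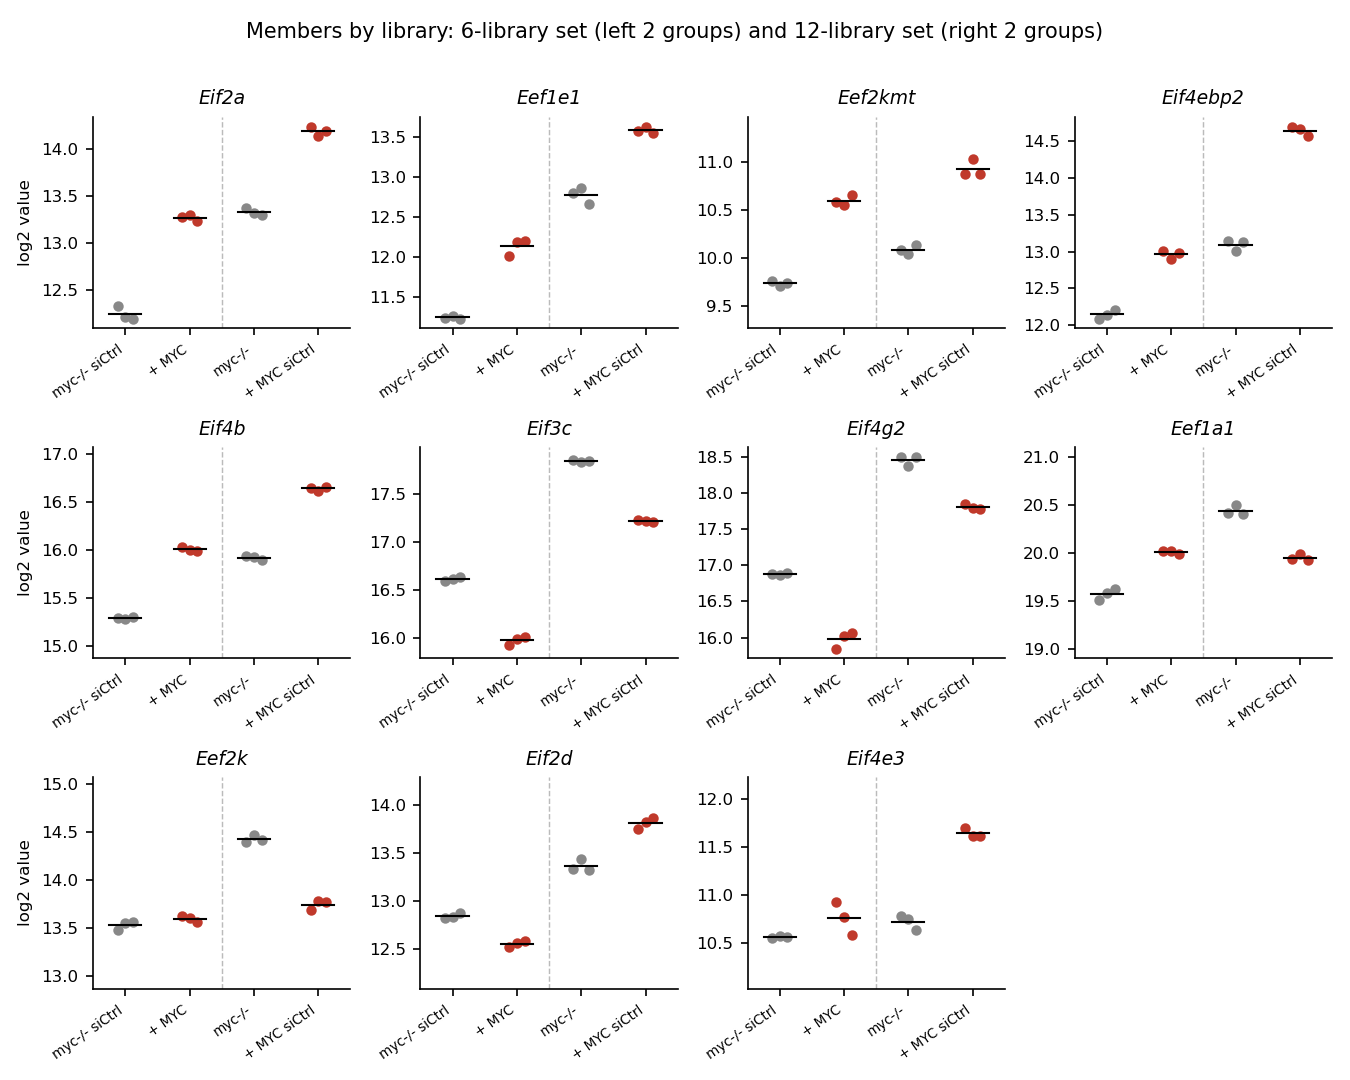
Deposited log2 values (vertical axes) of each library are shown for the 7 members called in the same direction in both sets and for Eef1a1, Eef2k, Eif2d and Eif4e3, whose MYC log2FC differed between the sets. Grey points are libraries without MYC, red points those with MYC, black bars group means, and the dashed line separates the 6-library set (left) from the 12-library set (right), whose levels are not comparable. Eif4ebp2 lies 0.82 higher with MYC on the left and 1.55 on the right. Eef1a1 lies 0.44 higher on the left and 0.49 lower on the right, against 0.00 and 0.40 under quantile normalization, which goes by rank.

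Of the genes that bring in the initiator tRNA, Eif2a rose, and Eif2s1 and Eif2s2, the alpha and beta subunits of eIF2, stayed below the fold cutoff (the gamma subunit is not among the members). Eif2a encodes a factor that can deliver the initiator tRNA without GTP and is distinct from eIF2 alpha, the product of Eif2s1. Its values were 12.33, 12.22 and 12.20 in myc-/- siCtrl against 13.27, 13.30 and 13.23 in myc-/- + MYC, and 13.37, 13.31 and 13.29 in myc-/- against 14.23, 14.13 and 14.18 in myc-/- + MYC siCtrl. Without overlap in either set, the log2FC was 1.02 ± 0.04 (adjusted p = 1.14e-09) and 0.86 ± 0.04 (adjusted p = 7.99e-06). Eif2s1 had 0.11 and 0.26, and Eif2s2 0.08 and -0.04, the latter turning positive with quantile normalization and with median centring. Eif2d, which can load or release tRNA at the P site, was at 12.82, 12.84 and 12.87 against 12.52, 12.56 and 12.58 in the 6-library set, and at 13.34, 13.43 and 13.32 against 13.75, 13.82 and 13.86 in the 12-library set. It was lower with MYC in every library of the former set (-0.29) and higher in every library of the latter (0.45). Of all genes, 26.8% were called in the 6-library set and 25.5% in the 12-library set. The 5 subunits of eIF2B, which recharges eIF2 with GTP, included no called member on the deposited scale. Their log2FC ranged from -0.07 to 0.56 in the 6-library set and from -0.09 to 0.55 in the 12-library set, and the highest was Eif2b3 in the former (0.56, against 0.32 in the latter) and Eif2b4 in the latter (0.55, against 0.45 in the former). Quantile normalization brought Eif2b3 in the 6-library set (0.60) and Eif2b4 in the 12-library set (0.60) past both cutoffs, and median centring Eif2b4 in the 12-library set (0.59). The lowest value, of Eif2b5, turned positive in both sets with quantile normalization.

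Genes of start codon selection and subunit joining had negative medians with MYC on the deposited scale. Of 8 in the table, 3 were called in the 6-library set (1 higher and 2 lower) and 2 in the 12-library set (1 higher and 1 lower). Of all genes, 26.8% and 25.5% were called. The median log2FC of the list was -0.23 and -0.21, opposite in sign to the median of all 55 members. With quantile normalization each lower call of the list was lost. Eif5, negative and past an FDR of 5% in both sets on the deposited scale, turned positive in both with that scaling. Eif1ax, the X-linked copy of eIF1A, was at 14.10, 14.07 and 14.09 in myc-/- siCtrl against 14.82, 14.94 and 14.94 in myc-/- + MYC, a rise of 0.81 ± 0.04 (adjusted p = 2.32e-09). It was at 15.58, 15.54 and 15.52 against 15.85, 15.75 and 15.82 in the 12-library set, without overlap but with a log2FC of 0.26. The similar gene Eif1a had -0.30 and -0.33 and was not called. How reads that fit both copies were counted is not given in the sources used here, and the split between them is uncertain.

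Eif1b, a copy of the start-codon factor eIF1, was at 11.61, 11.63 and 11.51 against 11.85, 11.97 and 11.91 in the 6-library set (log2FC 0.33, not called) and at 12.62, 12.76 and 12.58 against 13.31, 13.27 and 13.25 in the 12-library set. There it rose by 0.62 ± 0.05 (adjusted p = 0.00013). Eif1 itself had 0.19 and 0.12. Eif5b, the GTPase that joins the subunits, was at 13.73, 13.65 and 13.62 against 13.01, 13.10 and 13.12 in the 6-library set and at 15.13, 15.23 and 15.13 against 14.78, 14.68 and 14.77 in the 12-library set. It lay lower in every MYC library, with a log2FC of -0.59 ± 0.04 in the 6-library set, just past the fold cutoff, and -0.42 in the 12-library set. Eif6, which keeps free 60S subunits from joining 40S subunits, was at 14.37, 14.44 and 14.48 against 13.80, 13.89 and 13.87 and at 14.79, 14.98 and 14.75 against 14.17, 14.23 and 14.29. Its log2FC was -0.58 in the 6-library set, just inside the cutoff, and -0.61 ± 0.07 in the 12-library set (adjusted p = 0.000468). Eif1ad, which resembles eIF1A, was at 12.45, 12.42 and 12.41 against 11.78, 11.88 and 11.87 and at 13.37, 13.49 and 13.31 against 12.82, 12.88 and 12.79. It was at the cutoff in the 6-library set (-0.585 ± 0.04, called) and inside it in the 12-library set (-0.56). The calls of Eif1ad and Eif5b were each lost without myc-/- siCtrl replicate 1 (-0.57 and -0.56) and without myc-/- + MYC replicate 1 (-0.55 and -0.56). That of Eif6 was lost without myc-/- + MYC siCtrl replicate 1 (-0.57) or myc-/- replicate 2 (-0.54). Calls were also gained. Eif6 was called in the 6-library set without myc-/- siCtrl replicate 1 (-0.61) and without myc-/- + MYC replicate 2 (-0.60) or 3 (-0.59). Eif1ad was called in the 12-library set without myc-/- replicate 3 (-0.60). With median centring Eif6 was lost in the 12-library set (-0.56) and called in the 6-library set (-0.62). With quantile normalization it was lost in the 12-library set (-0.48). That scaling also ended the 6-library calls of Eif1ad (-0.54) and Eif5b (-0.46).

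The 13 subunits of eIF3 form the scaffold between the 40S subunit and eIF4G. Where 26.8% (6-library set) and 25.5% (12-library set) of all genes were called, 1 of these subunits was called in each set. This was Eif3c, at 16.60, 16.61 and 16.64 in myc-/- siCtrl against 15.92, 15.99 and 16.01 in myc-/- + MYC, and at 17.85, 17.83 and 17.84 in myc-/- against 17.23, 17.22 and 17.20 in myc-/- + MYC siCtrl. It fell without overlap in both sets, by 0.64 and by 0.62 on the log2 scale (SE 0.03 in each, adjusted p = 4.65e-09 and 1.08e-05). In the 12-library set the fall was 0.45 with quantile normalization and 0.58 with median centring, below the fold cutoff. The other 12 subunits ranged from -0.21 to 0.50 in the 6-library set and from -0.34 to 0.50 in the 12-library set. With quantile normalization Eif3e in the 6-library set (0.70) and Eif3b (0.62) and Eif3h (0.68) in the 12-library set passed both cutoffs. Eif3a, the largest subunit, had -0.21 and 0.26, and Eif3h had the widest spread among the libraries of one group, 14.08, 14.67 and 14.90 in myc-/- + MYC.

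In elongation, Eef2, the translocase, was at 18.38, 18.44 and 18.49 in myc-/- siCtrl against 19.50, 19.43 and 19.45 in myc-/- + MYC, and at 19.41, 19.42 and 19.39 in myc-/- against 19.88, 19.97 and 19.89 in myc-/- + MYC siCtrl. The MYC groups lay above the controls, by 1.02 ± 0.04 in the 6-library set (adjusted p = 4.59e-10) and by 0.51 ± 0.05 in the 12-library set, where the fold cutoff was missed. With quantile normalization the value in the 12-library set was 0.87 and passed. Eef2kmt, the methyltransferase of eEF2, was at 9.76, 9.71 and 9.74 against 10.58, 10.55 and 10.66 and at 10.09, 10.05 and 10.13 against 10.88, 11.03 and 10.88. It rose by 0.86 ± 0.05 (adjusted p = 2.54e-08) and 0.84 ± 0.06 (adjusted p = 5.88e-05), with no overlap in either set. Eef2k, the kinase that inactivates eEF2, was at 13.47, 13.55 and 13.56 against 13.62, 13.60 and 13.56 in the 6-library set (log2FC 0.07, adjusted p = 0.097) and at 14.39, 14.46 and 14.42 against 13.68, 13.77 and 13.76 in the 12-library set. There it fell by 0.68 on the log2 scale (SE 0.04, adjusted p = 1.55e-05). With quantile normalization that value was -0.5847, just short of the fold cutoff.

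Eef1e1 (AIMP3), a subunit of the aminoacyl-tRNA synthetase complex named for its likeness to eEF1 subunits, was at 11.23, 11.26 and 11.23 in myc-/- siCtrl against 12.01, 12.18 and 12.20 in myc-/- + MYC, and at 12.80, 12.86 and 12.67 in myc-/- against 13.57, 13.63 and 13.56 in myc-/- + MYC siCtrl. It rose by 0.89 ± 0.05 (adjusted p = 2.18e-08) and 0.81 ± 0.06 (adjusted p = 5e-05), without overlap. The 3 subunits of eEF1B (Eef1b2, Eef1d and Eef1g) had log2FC of 0.18, 0.18 and 0.20 in the 6-library set and -0.07, 0.25 and -0.16 in the 12-library set, where the negative values turned positive with quantile normalization, and none was called. Eef1a1, which encodes the main eEF1A, was at 19.50, 19.58 and 19.62 against 20.02, 20.02 and 19.98 in the 6-library set and at 20.41, 20.49 and 20.40 against 19.94, 19.99 and 19.92 in the 12-library set. It was higher with MYC in the former (0.44) and lower in the latter (-0.49), with 0.00 and 0.40 under quantile normalization. That scaling gives a gene the value of its rank and cannot test these signs for a gene near the top. In the 6-library set Eef1a1 was the highest member in every library. In the 12-library set Col1a1 lay above it in each myc-/- library (20.93 to 21.07) and below it in each myc-/- + MYC siCtrl library (15.05 to 15.08). Eef1a1 has processed copies in mammalian genomes, and how reads that fit several copies were counted is not given in the sources used here. Eef1a2, the form of muscle and nerve, had -0.09 and -0.13.

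Eif5a, which lets ribosomes pass proline stretches and carries hypusine, was at 16.70, 16.71 and 16.76 against 17.17, 17.29 and 17.31 in the 6-library set and at 17.38, 17.54 and 17.40 against 17.9992, 17.9998 and 18.05 in the 12-library set. All MYC libraries lay above their controls, with a log2FC of 0.53 ± 0.04 (adjusted p = 1.77e-07) and 0.58 ± 0.05 (adjusted p = 0.000152), just inside the fold cutoff. In the 12-library set it passed with median centring (0.62), with quantile normalization (0.78) and without myc-/- replicate 2 (0.62). Its copy Eif5a2 had -0.09 and -0.02, the latter turning positive with both of these scalings.

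Promoters were read for the members from RefSeq's rat assembly GRCr8, as 300 bases from 250 before to 50 after the start given there, and 49 of 55 members matched by symbol. Eef1d, Eif3e, Eif3h, Eif4b, Eif4e3 and Eif4ebp1 did not. The letters CACGTG, the E-box that MYC binds with MAX and that reads the same on both strands, occurred in the windows of 10 members (20.4%), against 876 of 9842 genes of the table with a window (8.9%). The 10 were Eef2, Eef2k, Eif1b, Eif3a, Eif3b, Eif3f, Eif4e, Eif4h, Eif5a and Eif5a2. Of these, Eef2 and Eif1b were called higher with MYC in one set, Eef2k was called lower in one set and Eif5a2 was called with siAHR-5, while none of the 7 members called with MYC in both sets was among them (Eif4b had no window). The letters TNGCGTG, or CACGCNA on the other strand, which form the AHR response element, occurred in 3 members (6.1%), Eif1a, Eif2b4 and Eif3g, against 733 genes of the table (7.4%). A match is a description of the letters and not a bound site. Windows of 60 bases upstream of the start are shown for the 4 called members, 5′ to 3′ on the strand of the gene, with the E-box in capitals. Eef2 is on the minus strand at chr7:9189282-9189341, Eef2k on the plus strand at chr1:184824316-184824375, Eif1b on the plus strand at chr8:129081077-129081136 and Eif5a2 on the plus strand at chr2:113657624-113657683.
Eef2: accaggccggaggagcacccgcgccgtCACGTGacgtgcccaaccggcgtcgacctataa
Eef2k: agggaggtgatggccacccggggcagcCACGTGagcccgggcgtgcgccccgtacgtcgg
Eif1b: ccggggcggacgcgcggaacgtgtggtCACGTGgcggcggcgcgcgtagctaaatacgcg
Eif5a2: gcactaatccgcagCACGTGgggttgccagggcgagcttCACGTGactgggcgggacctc
The box begins 76 bases upstream of the start in Eef2, 77 in Eef2k and 54 in Eif1b, and Eif5a2 holds a pair of boxes that begin 196 and 171 bases upstream.

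The MYC log2FC was compared between the sets in one fit of 12 libraries (12-library set minus 6-library set). The difference passed both cutoffs for 5 members, 3 higher and 2 lower, where 16.5% of all genes passed. Eif4ebp2 rose more in the 12-library set (difference 0.73 ± 0.07, adjusted p = 5.66e-07), as did Eif4e3 (0.72 ± 0.10, adjusted p = 2.84e-05), and Eif2d changed sign (0.74 ± 0.06, adjusted p = 6.4e-08). The 2 lower members were Eef2k (-0.75 ± 0.05, adjusted p = 2.57e-08) and Eef1a1 (-0.93 ± 0.07, adjusted p = 2.66e-08), and the latter difference became 0.51 with quantile normalization over the libraries of both sets in this test together, while the values of 0.00 and 0.40 come from quantile normalization within each comparison. Just short of the fold cutoff were Eif1ax (-0.55), Eif3k (-0.54) and Eef2 (-0.52). The sets differ in which arm was transfected and in their scaling, and these cannot be told apart from a difference in the MYC effect. For 6 of the 7 members called in both sets the difference was between -0.16 and 0.26. The values at both ends passed an FDR of 5% by limma, Eif4g2 (0.26, adjusted p = 0.00987) and Eif2a (-0.16, adjusted p = 0.0424). The 95% interval of the difference reached from -0.09 to 0.10 for Eif4b and from -0.09 to 0.12 for Eif3c.

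Knockdown of AHR in the MYC-expressing cells was followed by small differences that were mostly downward. Both siRNAs were set against the same 3 siCtrl libraries, so their results are not independent of one another. With siAHR-2, 1 of 55 members was called, where 0.47% of all genes were called, and with siAHR-5 3 members were called, 1 higher and 2 lower, where 2.33% were called. With an FDR below 5% as the only cutoff, 2 members were higher and 33 lower with siAHR-2, against 13.7% and 15.5% of all genes. With siAHR-5, 4 were higher and 36 lower, against 21.1% and 18.1% of all genes. The median log2FC of the members was -0.13 with siAHR-2 and -0.22 with siAHR-5, and that of all genes was 0.00 and 0.01. Negative values were found for 48 and 47 of the 55 members, and for 43 and 41 with quantile normalization. With that scaling fewer members were lower and more were higher, with lower ones still in the majority, at 7 higher and 20 lower with siAHR-2 (median -0.07) and 6 higher and 30 lower with siAHR-5 (median -0.15). Without siAHR-2 replicate 1 the members lower with siAHR-2 numbered 21.

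**Figure D3:**
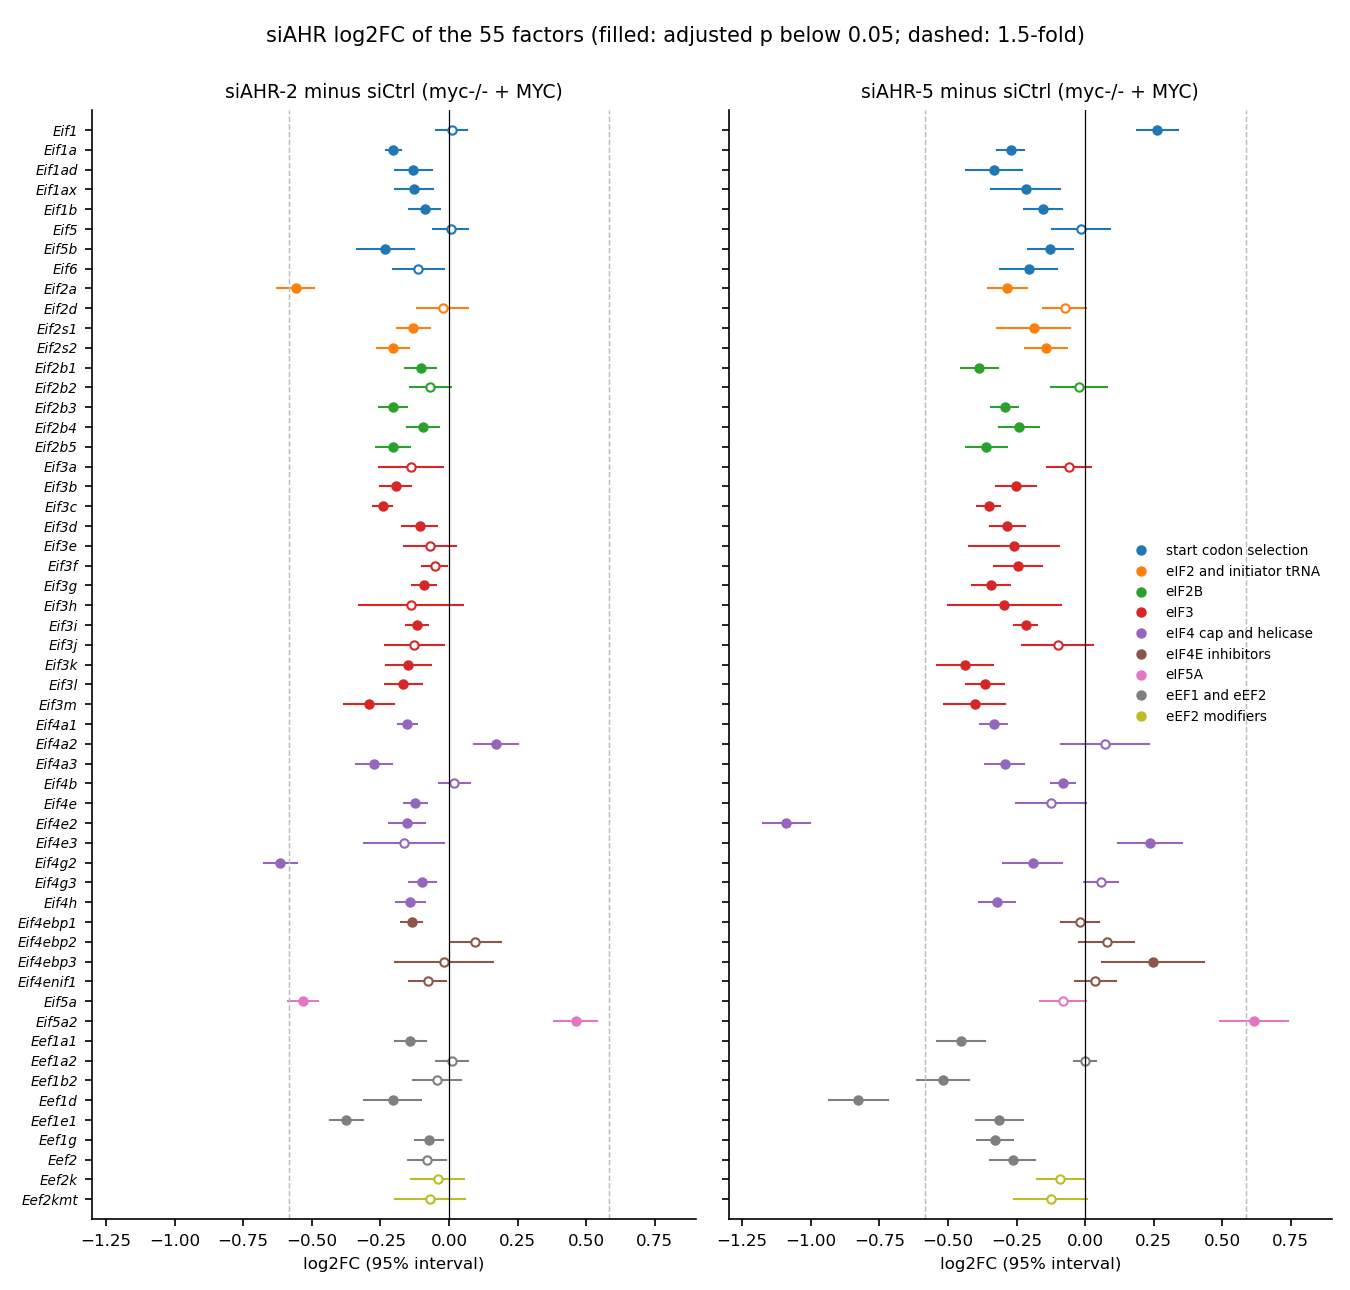
Points are the log2FC (horizontal axes) of the 55 members with siAHR-2 (left) and siAHR-5 (right) against the shared siCtrl libraries, lines are 95% intervals, colours are roles, and filled points passed an FDR of 5%. Most points lie left of 0, all 13 eIF3 subunits among them (red), although Eif3e and Eif3f with siAHR-2 and Eif3a with siAHR-5 turned positive under quantile normalization, and Eif4e2 and Eef1d lie farthest left with siAHR-5 (-1.09 and -0.83).

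The eIF3 subunits shared this direction, although no subunit reached 1.5-fold. All 13 had a negative log2FC with both siRNAs, from -0.29 to -0.05 with siAHR-2 and from -0.44 to -0.06 with siAHR-5, except that under quantile normalization Eif3e and Eif3f (siAHR-2) and Eif3a (siAHR-5) turned positive. At an FDR of 5%, 8 of 13 were lower with siAHR-2 and 11 of 13 with siAHR-5, against 15.5% and 18.1% of all genes. Eif3c, the core subunit that was also lower with MYC, was at 17.23, 17.22 and 17.20 with siCtrl, 16.96, 16.98 and 16.99 with siAHR-2 and 16.85, 16.88 and 16.86 with siAHR-5. The 3 groups did not overlap, and the log2FC was -0.24 ± 0.01 (adjusted p = 0.000539) and -0.35 ± 0.02 (adjusted p = 0.000258). Eif3m, a small scaffold subunit, had the lowest value with siAHR-2 (-0.29 ± 0.04) and Eif3k, a subunit of the outer scaffold, with siAHR-5 (-0.44 ± 0.04).

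The 5 eIF2B subunits were likewise all negative with both siRNAs, with medians of -0.10 and -0.29, and 4 of 5 passed an FDR of 5% with each, where 15.5% and 18.1% of all genes were lower at that FDR. Eif2b1, the alpha subunit of the exchange factor, had -0.10 with siAHR-2 and -0.39 with siAHR-5. Of the 8 genes of start codon selection, 5 were lower with siAHR-2 and 6 lower and 1 higher with siAHR-5 at that FDR, against the same shares of lower genes and 21.1% higher with siAHR-5. The one higher was Eif1, the start-codon factor, at 16.02, 15.96 and 15.98 with siCtrl, 15.99, 15.97 and 16.02 with siAHR-2 and 16.28, 16.19 and 16.27 with siAHR-5. Only the siAHR-5 libraries stood apart from the others, with a log2FC of 0.26 ± 0.03 (adjusted p = 0.00181).

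Of the 4 eIF4E inhibitors, 3 had a log2FC below 0 under siAHR-2 and 1, Eif4ebp1, under siAHR-5, where it turned positive with quantile normalization. Of all 13188 genes, 6145 with siAHR-2 and 5365 with siAHR-5 had a log2FC of 0 or below. Past an FDR of 5% were Eif4ebp1, lower with siAHR-2, and Eif4ebp3, higher with siAHR-5. At that FDR 15.5% of all genes were lower with siAHR-2 and 21.1% higher with siAHR-5. Eif4ebp2, which had risen with MYC in both sets, was at 14.70, 14.67 and 14.56 with siCtrl, 14.73, 14.73 and 14.76 with siAHR-2 and 14.75, 14.69 and 14.72 with siAHR-5. The log2FC was 0.10 (95% interval 0.00 to 0.19) and 0.08 (-0.02 to 0.18), and neither passed an FDR of 5%. Eif4ebp1 was at -0.14 with siAHR-2 and -0.02 with siAHR-5, Eif4ebp3 was at -0.02 and 0.25, and Eif4enif1 at -0.08 and 0.04, the latter turning negative with median centring.

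Beyond the shared direction, single members separated the siRNAs, and the direct comparison (siAHR-5 minus siAHR-2), in which 2.18% of all genes were called, called 2 members, both lower with siAHR-5. Eif4e2, the repressive cap-binding protein, was at 13.96, 13.99 and 13.95 with siCtrl, 13.82, 13.77 and 13.85 with siAHR-2 and 12.84, 12.95 and 12.85 with siAHR-5. The siAHR-5 libraries lay far below both other groups. The log2FC was -0.15 ± 0.03 with siAHR-2 and -1.09 ± 0.03 with siAHR-5 (adjusted p = 0.000113), and the siRNAs differed by -0.94 ± 0.04 (adjusted p = 8.22e-05). Eef1d, the delta subunit of eEF1B, which recharges eEF1A, was at 15.74, 15.84 and 15.90 with siCtrl, 15.62, 15.62 and 15.64 with siAHR-2 and 15.01, 15.03 and 14.98 with siAHR-5. Again the siAHR-5 group was lowest, with a log2FC of -0.21 ± 0.04 for siAHR-2, -0.83 ± 0.04 for siAHR-5 (adjusted p = 0.000307) and a difference of -0.62 ± 0.02 between them (adjusted p = 5.44e-05).

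**Figure D4:**
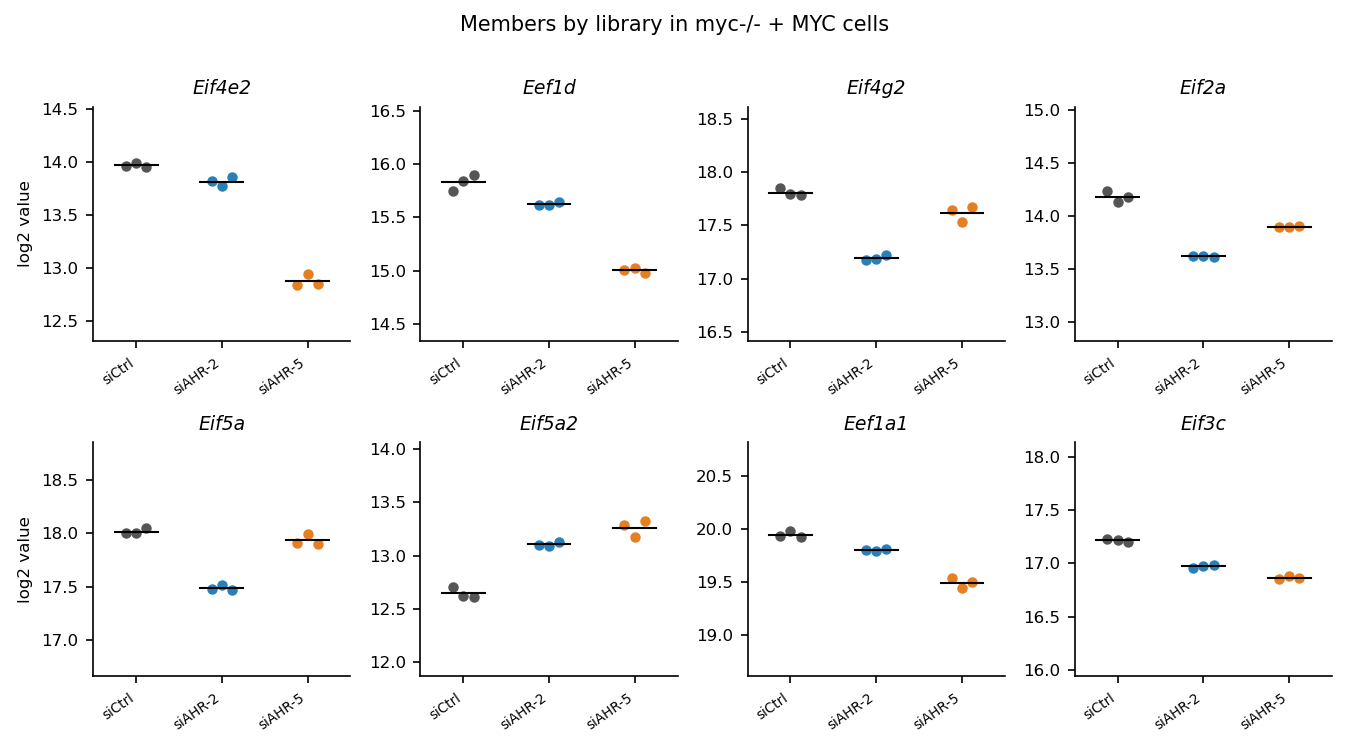
Deposited log2 values (vertical axes) of 8 members are shown for the 3 libraries each of myc-/- + MYC cells with siCtrl (grey), siAHR-2 (blue) and siAHR-5 (orange), with black bars at group means. Eif4e2 and Eef1d are lowest with siAHR-5, Eif4g2, Eif2a and Eif5a are lowest with siAHR-2, and Eif5a2 is higher with both siRNAs.

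Eef1e1, the synthetase complex subunit, was at 13.57, 13.63 and 13.56 with siCtrl, 13.21, 13.21 and 13.22 with siAHR-2 and 13.29, 13.22 and 13.32 with siAHR-5. Both siRNA groups lay below the control, at -0.37 ± 0.02 (adjusted p = 0.000668) and -0.31 ± 0.03 (adjusted p = 0.00162), inside the fold cutoff. Eef1b2, the alpha exchange subunit, was at 15.71, 15.78 and 15.84 with siCtrl, 15.72, 15.74 and 15.75 with siAHR-2 and 15.28, 15.27 and 15.23 with siAHR-5. Its siAHR-2 libraries overlapped the control, and those with siAHR-5 lay below, with a log2FC of -0.04 (positive under quantile normalization) and -0.52 ± 0.04 (adjusted p = 0.000561) and a difference between the siRNAs of -0.47 ± 0.02 (adjusted p = 7.11e-05). Eef1a1 was at 19.94, 19.99 and 19.92 with siCtrl, 19.81, 19.80 and 19.82 with siAHR-2 and 19.54, 19.45 and 19.50 with siAHR-5, in separate ranges. Its log2FC was -0.14 and -0.45, and under quantile normalization -0.03 and -0.22. Eef1g, the gamma subunit, had -0.07 and -0.33, the former turning positive with quantile normalization. Eef2 had -0.08 and -0.26, and every siAHR library lay below the siCtrl libraries. Both values turned positive with quantile normalization, which gives a gene the value of its rank. Eef2 lay below Eef1a1 in every siCtrl library and above it in every siAHR library. The signs under that scaling go with this change of rank and cannot test the fall of Eef2.

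Eif4g2, Eif2a and Eif5a had the reverse order, with the lowest values for siAHR-2. Eif4g2 (DAP5) was at 17.85, 17.79 and 17.78 with siCtrl, 17.18, 17.18 and 17.22 with siAHR-2 and 17.65, 17.53 and 17.67 with siAHR-5. It was the member called with siAHR-2 (-0.62 ± 0.02, adjusted p = 0.000372) and had -0.19 ± 0.04 with siAHR-5, and the siRNAs differed by 0.42 ± 0.04 (adjusted p = 0.000886), below the fold cutoff. Its call was lost with quantile normalization (-0.50). With a block for the replicate number the call was also lost, at an unchanged log2FC (limma adjusted p = 0.0126). Eif2a was at 14.23, 14.13 and 14.18 with siCtrl, 13.62, 13.63 and 13.62 with siAHR-2 and 13.90, 13.89 and 13.91 with siAHR-5. The 3 groups were separate, with a log2FC of -0.56 ± 0.03 (-0.59 and called with median centring) and -0.28 ± 0.03 and a difference of 0.28 ± 0.01 (adjusted p = 0.000118). Eif5a was at 17.9992, 17.9998 and 18.05 with siCtrl, 17.48, 17.51 and 17.46 with siAHR-2 and 17.91, 17.996 and 17.90 with siAHR-5. The siAHR-2 group lay below the others, at -0.53 ± 0.02 (adjusted p = 0.000373), while siAHR-5 was at -0.08 (95% interval -0.16 to 0.00), which turned positive with quantile normalization, and the siRNAs differed by 0.45 ± 0.03 (adjusted p = 0.000325).

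Eif5a2, the copy of Eif5a with a more restricted expression, moved upward. It was at 12.71, 12.62 and 12.61 with siCtrl, 13.10, 13.09 and 13.12 with siAHR-2 and 13.28, 13.17 and 13.32 with siAHR-5. Both siRNA groups lay above the control without overlap, by 0.46 ± 0.03 (adjusted p = 0.000743, inside the fold cutoff) and 0.62 ± 0.05 (adjusted p = 0.000697, called). The call was lost with median centring (0.56) and without siAHR-5 replicate 3 (0.58). The difference between the siRNAs was 0.15 ± 0.04 (adjusted p = 0.0338). Eif4e3, the atypical cap-binding protein, was at -0.16 with siAHR-2 and 0.24 with siAHR-5, which differed by 0.40 ± 0.06 (adjusted p = 0.00558).

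**Figure D5:**
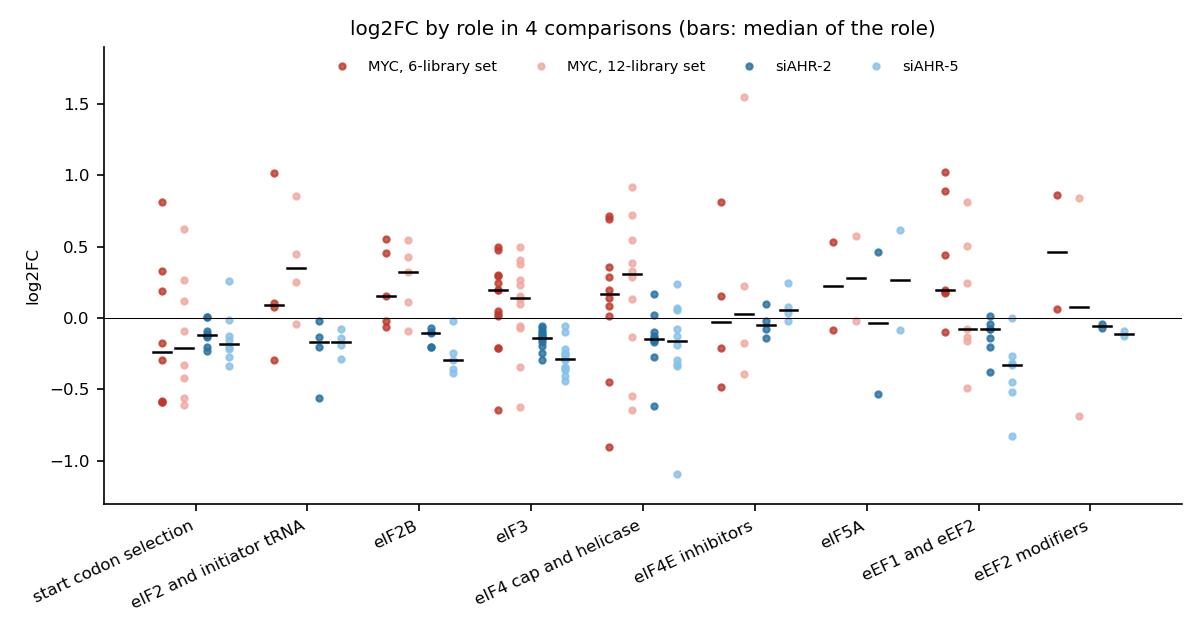
The log2FC (vertical axis) of each member is plotted by role (horizontal axis) for MYC in the 6-library set (dark red), MYC in the 12-library set (light red), siAHR-2 (dark blue) and siAHR-5 (light blue), with black bars at the median of the role. The eIF3 medians are 0.20 and 0.14 with MYC and -0.14 and -0.28 with the siRNAs, and the start codon group has medians of -0.23 and -0.21 with MYC.

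Over the 4 comparisons with a control, 19 members (34.5%) were called at least once and 36 never, where 37.1% of all genes were called at least once. The members never called included all 5 subunits of eIF2B, 12 of 13 subunits of eIF3, Eif2s1 and Eif2s2, and Eif4e, Eif4a1 and Eif5a. Of these, Eif2b3, Eif2b4, Eif3b, Eif3e, Eif3h and Eif5a were called in one MYC comparison each under quantile normalization, and Eif2b4 and Eif5a also under median centring.

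The rest of the translation pathway was examined through 58 genes of the table in lists grouped by role. With MYC, 9 were called in the 6-library set (8 higher and 1 lower) and 13 in the 12-library set (11 higher and 2 lower), which is 15.5% and 22.4%, against 26.8% and 25.5% of all genes. Of 10 mitochondrial factors (the list also held Eefsec, the cytosolic selenocysteine elongation factor, not called in either set), 4 were called higher in each set, against 12.5% and 10.8% of all genes called higher. Gfm1 and Gfm2, the mitochondrial elongation and recycling G factors, had log2FC of 0.69 and 0.83, and of 0.82 and 0.82, and Tsfm, the exchange factor of mitochondrial EF-Tu, had 0.67 and 0.94. Among enzymes that modify eEF2 or eIF5A, Dph1 and Dph5, which build the diphthamide of eEF2, had 1.37 and 0.62, and 0.75 and 0.87. Impact, which restrains the eIF2 alpha kinase GCN2, had 0.64 and 1.04. Gigyf1, a partner of 4EHP, had 0.83 and 0.73, while Ctif, a scaffold of cap-binding-complex translation, fell in both sets (-0.91 and -0.88). Calls of the 12-library set also included Pdcd4, the inhibitor of eIF4A (0.92, against 0.54 in the 6-library set), Denr, a recycling factor (0.78 against 0.56), Pelo, a ribosome rescue factor (0.62 against 0.51), and Cyfip1, an eIF4E-binding protein (-0.69 against -0.42). A further pair of mitochondrial factors was each called in one set, Mtfmt, which formylates the initiator tRNA, in the 6-library set (0.64 against 0.22) and the initiation factor Mtif3 in the 12-library set (0.59 against 0.31). In the test of the difference between the sets, 2 of the 58 passed both cutoffs, Dph1 (-0.74) and Ece2 (-0.86), where 16.5% of all genes did, and Pdcd4, Denr, Pelo, Cyfip1, Mtfmt and Mtif3 did not. With siAHR-2 limma called none of the 58, while 31 had an unadjusted p below 0.05 and 27 passed an FDR of 5%, 11 higher and 16 lower. Of all genes, 0.47% were called there, and 13.7% were higher and 15.5% lower at that FDR. With siAHR-5, 2 were called, both lower, Dph1 (-0.63) and Kti12 (-0.59), a partner of the Elongator complex in wobble uridine modification of tRNA that had been placed in the list of modifying enzymes. These 2 make 3.45% of the 58, where 2.33% of all genes were called. At an FDR of 5%, 28 passed, 5 higher and 23 lower, against 21.1% higher and 18.1% lower of all genes.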

How the data were processed

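RNA-seq of 18 rat fibroblast libraries was used, with the group and replicate number of each from the sample labels. Reads were aligned by the authors to rn6 with HISAT2 2.1.0, and genes with few reads were removed and the rest normalized with DESeq2. The read counter, its treatment of reads that fit several places and the library strand setting are not given in the sources used here. The authors deposited log2 normalized values of 13188 genes. Although called log CPM, their totals off the log scale were 86.3 to 94 times (6-library set) and 136 to 161 times (12-library set) that of a CPM library. The transformation is not stated, and depth and the precision it gives are unknown. Value columns without a sample numbered 0. The 18 pairs of libraries within groups differed by a median of 0.0347 to 0.0886 on the log2 scale, and 0 pairs were identical.

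Differences were tested with limma 3.58.1 (lmFit, then eBayes with trend) in R 4.3.3 on the deposited values, with only the groups compared in each fit, and p-values adjusted by Benjamini-Hochberg over all genes. A call needed a 1.5-fold difference and an adjusted p of at most 0.01, the cutoffs used in the study's results. The fits were tested on simulated data. Plots were made in Python 3.11.15 with matplotlib 3.10.9. Members and lists were chosen with earlier results of these data known. Members were named if past both cutoffs in a comparison (up to 8 each way), if their MYC effect differed between the sets, or as paralog families. Eef2k was named too. For some of the paralogs only the log2FC is given. Other members were named as examples after their values were seen. Up to 4 other translation genes past the cutoffs were named from each list. Alternatives were an FDR below 5%, no trend, quantile normalization, median centring, only genes with a mean log2 of 5 or more, a pseudocount of 1, more groups in one fit, a replicate block, and each library left out in turn.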

Additional observations from a re-analysis of the deposited data

Results flagged for a closer look

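These results stood out because the MYC log2FC differed between the 12-library set and the 6-library set past both cutoffs in a direct limma test. Among the members these were Eef1a1 (-0.93), Eef2k (-0.75), Eif2d (0.74), Eif4e3 (0.72) and Eif4ebp2 (0.73). Among the other translation genes they were Dph1 (-0.74), which builds the diphthamide of eEF2, and Ece2 (-0.86), an endothelin-converting enzyme that had been placed in the list of modifying enzymes. In all, 16.5% of the genes of the table passed this test.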

How the results depend on the processing

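Without the fold cutoff, at an FDR below 5%, the members that passed numbered 45 (MYC, 6-library set), 42 (MYC, 12-library set), 35 (siAHR-2), 40 (siAHR-5), 32 (siAHR-5 against siAHR-2) and 20 (MYC effect between the sets), in place of 12, 11, 1, 3, 2 and 5. In the same order, 10051, 8538, 3860, 5169, 5151 and 7235 of all 13188 genes passed that FDR. The single member called with siAHR-2 became 0 with quantile normalization, 2 with median centring, which added Eif2a (-0.59), and 0 with the replicate block, where Eif4g2 kept its log2FC of -0.6151 with an adjusted p of 0.0126 and limma called 0 genes of the whole table. At an unadjusted p below 0.05, 36 members passed with quantile normalization and 40 with the block. The share of all genes below that p is not given, here or for the other translation genes with siAHR-2. Counts at that p are therefore no result about the members or those genes. A pairing by replicate number was not evident, as correlations of same-numbered libraries ran from -0.256 to 0.242, but these cannot exclude it. The replicate block left the other counts at 12, 11, 3, 2 and 5. Leaving out each library gave 11 to 13, 10 to 12, 2 to 3 (siAHR-5) and 5 to 6 (MYC effect between the sets) members. One called value changed sign, Eef1a1 between the sets under quantile normalization (0.5054); the cause was not tested. With that scaling Eif1ad (-0.54) and Eif5b (-0.46) in the 6-library set and Eif6 (-0.48) in the 12-library set were also lost, and with a pseudocount of 1 Eif1ad (-0.5848). Differences near 1.5-fold are therefore not settled by these 3 libraries a group, and depth limits are unknown.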
